A study of Mus musculus with 9 samples.

Results

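Chemokines are small secreted proteins that guide white blood cells, and 10 genes of this system were followed in cultured cardiac fibroblasts in which Gata4 or Tbx20 was knocked down. They were Cxcl1, Cxcl2, Cxcl3, Cxcl5, Cxcl12, Ccl2, Ccl7, Cx3cl1, Ackr3 and Ackr4, taken from the 38924 genes of the table by symbol, and each symbol matched 1 gene. They were chosen by their known roles and with their CPM in the groups already in view, so those levels and their differences are given as descriptions, and the fits that include them support nothing about them. Cells came from adult RosaCas9-EGFP mice of 8 to 10 weeks (C57BL/6 background), whose cells make Cas9 and EGFP themselves and need only a guide RNA to be cut at a target. They were grown for 3 days, sorted as CD45-CD31-CD90+, replated, and given guide RNAs in a lipid reagent 6 days later at 80 to 90% confluency. Control cells received scrambled guides, Gata4 KD cells 2 guides against Gata4, and Tbx20 KD cells 2 guides against Tbx20. All 3 groups thus share the Cas9 genotype, the sort and the lipid transfection, and there were 3 libraries a group, named a, b and c. Each library is RNA from a whole dish, in which cells that took up guides and cells that did not are mixed.

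Chemokines fall into families named after the spacing of their first cysteines. Cxcl1, Cxcl2, Cxcl3 and Cxcl5 carry the ELR motif, bind the receptor Cxcr2 and draw neutrophils. Ccl2 and Ccl7 bind Ccr2 and draw monocytes. Cxcl12 acts on Cxcr4 in homing and retention of cells, and Cx3cl1 is a membrane-anchored ligand of Cx3cr1 that can be shed. Atypical receptors bind chemokines without the usual G protein signal and take them out of circulation. Ackr3 takes up Cxcl12, and Ackr4 takes up Ccl19, Ccl21 and Ccl25. Fibroblasts of injured hearts are a known source of such signals.

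The neutrophil-attracting ligands are neighbours on the plus strand of chromosome 5 (GRCm38). Cxcl5 (ENSMUSG00000029371) spans 90759360 to 90761624, Cxcl3 (ENSMUSG00000029379) 90786103 to 90789600, Cxcl1 (ENSMUSG00000029380) 90891241 to 90893115 and Cxcl2 (ENSMUSG00000058427) 90903871 to 90905938. Ppbp and Pf4 lie between Cxcl5 and Cxcl3, and Cxcl15 follows Cxcl3. Ccl2 and Ccl7 start 10.1 kb apart on chromosome 11. Promoter sequence was at hand from RefSeq (GRCm38.p6) for 7 of the 10 genes, and Cxcl5, Ccl2 and Ccl7 were not among them. The 250 bases before the start are shown for the 3 cluster genes that had one, because Cxcl1 and Cxcl3 were higher in each Gata4 KD library than in each Tbx20 KD library while Cxcl2 was not. They lie at chr5:90890995-90891244, chr5:90903649-90903898 and chr5:90785851-90786100, and capitals mark every match to GGNNTTTCC, the core of sites bound by NF-kB, on either strand.
Cxcl1: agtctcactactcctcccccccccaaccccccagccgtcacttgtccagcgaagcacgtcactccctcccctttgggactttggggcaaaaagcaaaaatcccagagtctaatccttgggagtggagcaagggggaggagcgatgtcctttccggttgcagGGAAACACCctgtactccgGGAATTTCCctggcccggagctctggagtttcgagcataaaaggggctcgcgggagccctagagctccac
Cxcl2: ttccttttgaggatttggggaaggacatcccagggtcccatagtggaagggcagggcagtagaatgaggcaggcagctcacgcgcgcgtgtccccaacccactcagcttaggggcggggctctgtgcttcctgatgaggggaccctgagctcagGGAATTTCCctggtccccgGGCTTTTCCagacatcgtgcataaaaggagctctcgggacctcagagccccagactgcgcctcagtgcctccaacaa
Cxcl3: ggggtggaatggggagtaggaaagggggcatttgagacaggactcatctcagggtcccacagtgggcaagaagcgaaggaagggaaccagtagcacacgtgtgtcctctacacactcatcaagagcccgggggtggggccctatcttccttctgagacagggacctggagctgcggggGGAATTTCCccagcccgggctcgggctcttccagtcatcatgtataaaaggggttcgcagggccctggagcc

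The same 9 letters, GGAATTTCC, stood in all 3 windows, starting 70 bases before the start in Cxcl1, 96 in Cxcl2 and 72 in Cxcl3. Cxcl1 held a further match on the other strand at 89 bases, and Cxcl2 a further one, GGCTTTTCC, at 77 bases. Among the other 4 promoters at hand, Ackr4 held 1 match, GGGGTTTCC, at 230 bases, and those of Cxcl12, Cx3cl1 and Ackr3 held none. A match occurred in 4.93% of 32851 promoter windows of this length. On either strand, no window of the 7 held the GATA letters AGATAA, which 9.99% of all windows hold, or the GATA letters TGATAA, held by 7.94%. None held the T-box letters AGGTGTGA, present in 1.12%, or the AP-1 letters TGANTCA, present in 6.75%. The matches describe letters, not bound sites, and none of the motifs overlapped another in these windows.

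Depth and identity were checked over the series. Total counts were 31214828 to 41950397 per library. Gata4 was at 156 to 166 CPM (counts scaled to library size, with TMM factors over the 9 libraries) in control and 47.2 to 65.2 CPM in Gata4 KD, and fell by 65.9% (adjusted p = 0.00272, edgeR quasi-likelihood test). Tbx20 was at 714 to 1290 CPM in control and 321 to 429 CPM in Tbx20 KD, with no overlap, yet the difference of -1.35 (log2, SE 0.21) did not pass over all genes (adjusted p = 0.748, edgeR), while it passed with DESeq2, with no filter on low counts and with the exact test. Tbx20 was at 518 to 904 CPM in Gata4 KD, overlapping control. The 7 fibroblast markers summed to 6120 to 9660 CPM. The 15 leukocyte markers summed to 29.3 to 72.9 CPM with Cd3e at 0, S100a9 at no more than 0.0248 CPM and S100a8 at 6, 3 and 5 counts in Gata4 KD against 0 or 1 in each other library, the 8 endothelial ones to 41.1 to 61.0 CPM and the 5 mesothelial ones to 8.06 to 44.4 CPM, and the part of these cells in the results below was not tested except where a value is given. A whole dish cannot tell fewer cells of a type from less RNA per cell.

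Among the 10 genes, the 2 CC ligands and Cxcl12 dominated in control cells. Outside the 10, Ccl5 at 209 and Cxcl10 at 76.4 CPM per kb were also above Cxcl12 in control. Per kilobase of exon, Ccl7 was highest at 289 ± 10.3 CPM per kb (SD, n = 3), then Ccl2 at 250 ± 1.43, Cxcl12 at 45.9 ± 3.79 and Cxcl5 at 16.6 ± 4.24. Cx3cl1 at 6.46 ± 1.09, Cxcl1 at 4.64 ± 0.871, Ackr3 at 1.58 ± 0.376, Cxcl3 at 1.11 ± 0.209, Cxcl2 at 0.365 ± 0.181 and Ackr4 at 0.234 ± 0.102 CPM per kb followed. The library ranges of Cx3cl1 and Cxcl1, of Ackr3 and Cxcl3, and of Cxcl2 and Ackr4 overlapped, so the order within those pairs is not set, and all other neighbours in the order were apart in every library. Ccl2, Ccl7 and Cxcl12 gave 91.3 to 92.6% of the CPM of the 10 genes in control, 87.5 to 89.5% in Gata4 KD and 92.2 to 92.8% in Tbx20 KD. In Gata4 KD, Cxcl3 stood above Ackr3 by mean level per kb, with overlapping libraries, and in Tbx20 KD Ackr4 stood above Cxcl2, again with overlap.

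**Figure D1:**
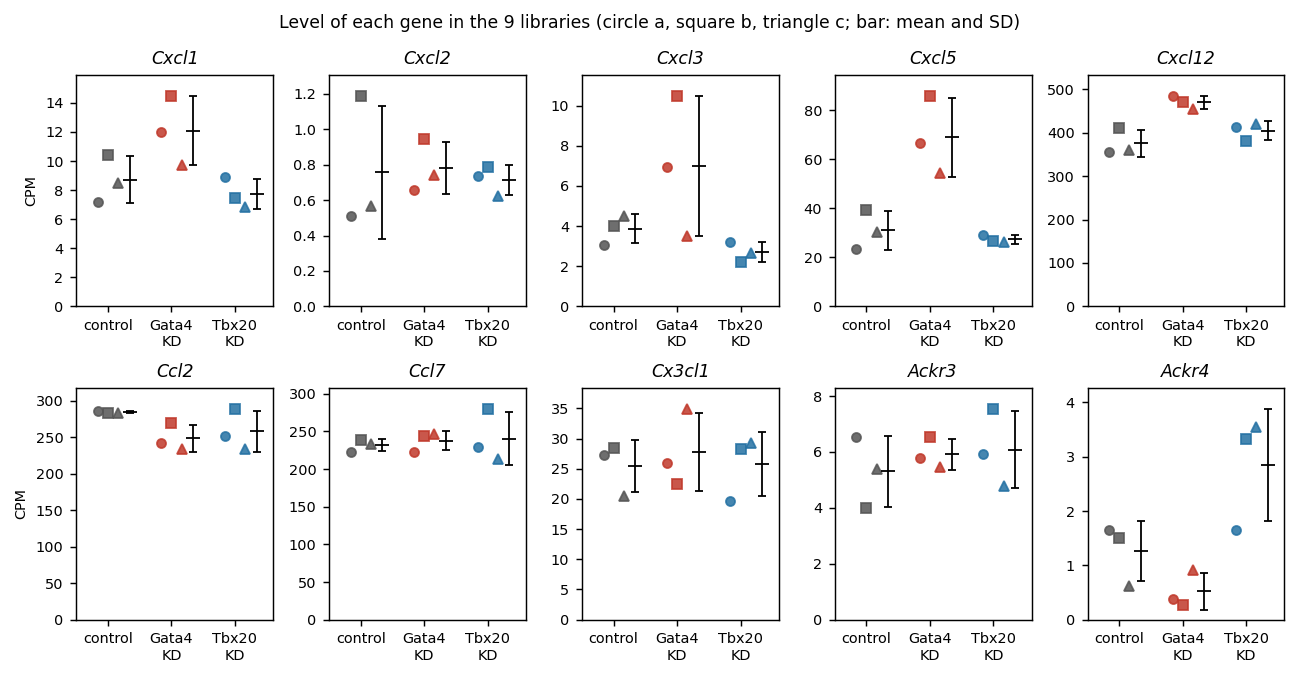
Level of each of the 10 genes (y axis, CPM, each panel from 0) in control, Gata4 KD and Tbx20 KD (x axis), with a point for each library and a bar for mean and SD. Cxcl5 is at 54.2 to 85.9 CPM in Gata4 KD against 23.5 to 39.3 CPM in the other 6 libraries, and Ackr4 at 1.66 to 3.55 CPM in Tbx20 KD lies above all others.

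Among the 4 neutrophil-attracting ligands, Cxcl5 differed most from control in Gata4 KD. Cxcl5, a CXC ligand made by epithelial and stromal cells, was at 23.5, 39.3 and 30.2 CPM in control libraries a, b and c, at 66.4, 85.9 and 54.2 CPM in Gata4 KD, and at 29.2, 26.5 and 26.1 CPM in Tbx20 KD. Each Gata4 KD library was above every other library. The fitted level in Gata4 KD was 2.22 times that of control, a log2 difference of 1.15 (SE 0.21), and 2.53 times that of Tbx20 KD, 1.34 (SE 0.15). Tbx20 KD differed from control by -0.18 (SE 0.17), and by 0.03 without control b.

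Cxcl3 and Cxcl1 were also highest by group mean in Gata4 KD and lowest in Tbx20 KD. Cxcl3 was at 3.08, 4.01 and 4.51 CPM in control, 6.96, 10.5 and 3.50 CPM in Gata4 KD, and 3.2, 2.2 and 2.66 CPM in Tbx20 KD. Gata4 KD c lay inside the control range, and the Gata4 KD libraries overlapped control but not Tbx20 KD. Its log2 difference was 0.85 (SE 0.35) between Gata4 KD and control, 0.44 without Gata4 KD b and 1.19 without Gata4 KD c. Between the knockdowns it was 1.37 (SE 0.37).

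Cxcl1, the ligand long known as KC in mice, was at 7.18, 10.4 and 8.52 CPM in control, 12, 14.5 and 9.74 CPM in Gata4 KD, and 8.87, 7.44 and 6.83 CPM in Tbx20 KD. Gata4 KD c was again the lowest of its group and below control b, while all 3 were above Tbx20 KD. The log2 differences were 0.47 (SE 0.18) from control and 0.65 (SE 0.16) from Tbx20 KD. Tbx20 KD and control overlapped for both genes, with log2 differences of -0.51 (SE 0.20) for Cxcl3 and -0.17 (SE 0.16) for Cxcl1.

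Cxcl2, next to Cxcl1 in the genome and with the same GGAATTTCC, overlapped between all groups. It was at 0.513, 1.19 and 0.568 CPM in control, 0.658, 0.945 and 0.743 CPM in Gata4 KD, and 0.735, 0.785 and 0.621 CPM in Tbx20 KD. The highest library was control b, and the log2 difference of Gata4 KD from control was 0.05 (SE 0.37), or 0.52 without control b. At this error a change of the size seen in Cxcl1 was not detectable. Of its 75-base windows 4.57% also occur in Cxcl3, as do 2.78% of those of Cxcl3 in Cxcl2, so some reads could be placed with either gene. The 4 ligands together summed to 34.3 to 54.9 CPM in control, 68.2 to 112 CPM in Gata4 KD and 36.2 to 42.0 CPM in Tbx20 KD, and Cxcl5 gave 68.6 to 79.5% of that sum.

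Neighbours in the same cluster were measured as well. Pf4, platelet factor 4, was at 5.40 to 8.25 CPM over the 9 libraries, with a log2 difference of 0.24 between Gata4 KD and control that did not pass (SE 0.14). Ppbp was at 0.439, 0.750 and 0.0275 CPM in Gata4 KD and 0.0942 to 0.269 CPM elsewhere, too low to be tested. Cxcl15 had at most 0.0314 CPM.

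Cxcl12, the ligand of Cxcr4, was at 356, 411 and 360 CPM in control, 485, 472 and 455 CPM in Gata4 KD, and 414, 380 and 421 CPM in Tbx20 KD. All Gata4 KD libraries lay above the other 6, by a small margin over control b and Tbx20 KD c. The log2 difference was 0.32 (SE 0.08) from control, or 25.1%, and 0.22 (SE 0.06) from Tbx20 KD. Tbx20 KD overlapped control at 0.11 (SE 0.08).

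Ccl2, the main monocyte attractant, was at 286, 284 and 283 CPM in control, 242, 270 and 234 CPM in Gata4 KD, and 252, 289 and 234 CPM in Tbx20 KD. The 3 control libraries were nearly equal, and all Gata4 KD libraries were below them, while Tbx20 KD spanned them. The log2 difference of Gata4 KD from control was -0.20 (SE 0.08) and that of Tbx20 KD -0.14 (SE 0.09). Ccl7, a ligand of the same receptor, was at 223, 239 and 234 CPM in control, 223, 244 and 247 CPM in Gata4 KD, and 229, 280 and 213 CPM in Tbx20 KD, and all groups overlapped. Its log2 differences were 0.04 (SE 0.08) and 0.06 (SE 0.11) from control. Tbx20 KD b was the highest library of its group for both CC ligands.

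Cx3cl1, fractalkine, was at 27.2, 28.5 and 20.5 CPM in control, 25.9, 22.4 and 34.9 CPM in Gata4 KD, and 19.6, 28.3 and 29.2 CPM in Tbx20 KD. The groups overlapped throughout, with log2 differences of 0.13 (SE 0.18) and 0.02 (SE 0.17) from control. Ackr3, the scavenger of Cxcl12, was at 6.53, 4.01 and 5.38 CPM in control, 5.77, 6.53 and 5.45 CPM in Gata4 KD, and 5.93, 7.54 and 4.79 CPM in Tbx20 KD. It overlapped as well, at 0.15 (SE 0.19) and 0.20 (SE 0.22) from control.

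Ackr4, the scavenger of Ccl19, Ccl21 and Ccl25, had the widest gap of the 10 between the knockdowns. It was at 1.65, 1.5 and 0.627 CPM in control (61, 53 and 21 counts), 0.376, 0.278 and 0.908 CPM in Gata4 KD (12, 10 and 33 counts), and 1.66, 3.33 and 3.55 CPM in Tbx20 KD (70, 106 and 143 counts). Gata4 KD c exceeded control c, so those groups overlapped, while every Tbx20 KD library was above every control, Tbx20 KD a only just. The log2 difference was -1.26 (SE 0.51) for Gata4 KD and 1.17 (SE 0.39) for Tbx20 KD, both against the same control libraries. Against control the Gata4 KD value was -1.92 without Gata4 KD c and -0.95 without Gata4 KD b, and the Tbx20 KD value 0.86 without control c and 1.45 without Tbx20 KD a. Between the knockdowns it was -2.42 (SE 0.47), which is 0.187 times the level in Tbx20 KD, and leaving out 1 library at a time gave -3.12 to -2.10. The gene (ENSMUSG00000079355, minus strand of chromosome 9) overlaps Acad11 on the other strand, and the methods state that counting used strand. The study itself names Ackr4 among genes of opposite response in these libraries, so its pattern is not independent evidence. The study states an FDR under 0.05 for its selected genes. Here Ackr4 did not pass against control for either knockdown, in the main fit or in any of 14 alternatives.

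**Figure D2:**
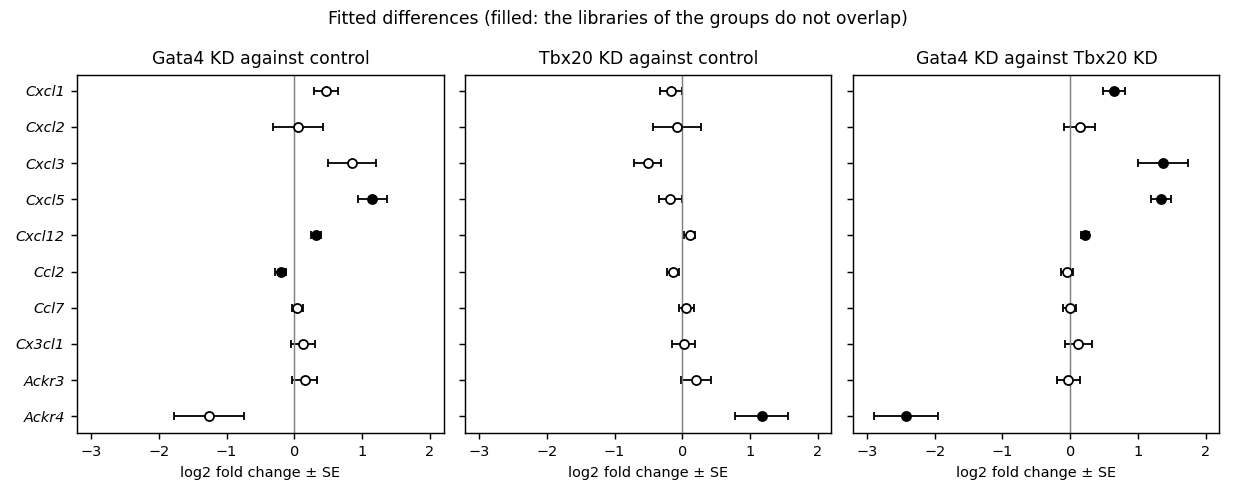
Fitted log2 fold change (x axis) with SE for each gene (y axis) in the 3 comparisons; filled points mark genes whose libraries do not overlap between the groups. Cxcl5 lies at 1.15 and 1.34 in the panels with Gata4 KD, Ackr4 at -1.26, 1.17 and -2.42, and Ccl7 and Ackr3 stay near 0 in all 3.

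Over the whole table, at an adjusted p under 0.05 in edgeR, 0 of the 10 genes passed in Gata4 KD against control, where 0.380% of 14468 genes did, and 6 had an unadjusted p under 0.05, as did 8.54% of all genes. In Tbx20 KD against control 0 passed, beside 0.00687% of 14547 genes, and 2 had an unadjusted p under 0.05, as did 2.69% of all genes. DESeq2 called 2 and 0 of the 10 in these comparisons. Between the knockdowns 1 passed, Cxcl5, beside 1.44% of 14477 genes, and 5 had an unadjusted p under 0.05, as did 16.7% of all genes. That call was lost without Gata4 KD a, Tbx20 KD b or Tbx20 KD c, with adjusted p of 0.0801, 0.0893 and 0.0927. Ackr4 was past the threshold there in 5 of 14 alternatives, DESeq2 among them. Groups did not overlap for 3 genes in Gata4 KD against control, beside 14.0% of all genes, for 1 in Tbx20 KD against control, beside 6.96%, and for 5 between the knockdowns, beside 23.1%. The genes were chosen with these contrasts known, and nothing is read from the counts. The median log2 difference of the 10 was 0.14, -0.03 and 0.13 in the 3 comparisons, beside -0.017, -0.002 and -0.006 over all genes. With library size alone as the scale, the 208 genes called between the knockdowns, 118 higher and 90 lower in Gata4 KD, became 90 higher and 112 lower.

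Within groups, some of the genes varied together and others ran opposite. After the group means were taken out of log2 CPM, Pearson's r over the 9 libraries was 0.95 for Cxcl1 with Cxcl5, 0.80 for Cxcl1 with Cxcl3 and 0.78 for Cxcl3 with Cxcl5. Cxcl2 had r = 0.72 with Cxcl1, 0.79 with Cxcl5 and 0.25 with Cxcl3. In each of Cxcl1, Cxcl3 and Cxcl5, Gata4 KD b was the highest of its group and Gata4 KD c the lowest. Ptgs2, which encodes the prostaglandin enzyme COX-2, had the same order at 640, 1080 and 324 CPM in Gata4 KD. Cxcl3 and Ackr4 ran opposite within groups, with r = -0.85, and Ackr4 was lowest in Gata4 KD b. Cxcl12 ran opposite to Ackr3 at -0.82, and Cx3cl1 opposite to Cxcl3 at -0.81 and to Cxcl1 at -0.61. Ccl2 with Ccl7 had r = 0.78 and Cx3cl1 with Ackr4 0.98. Of the 45 pairs 25 were positive and 20 negative, with a median of 0.13. These values rest on 9 libraries that share their depth and scaling, and serve as descriptions.

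Gata4 KD b also had the lowest leukocyte marker sum of all libraries, 29.3 CPM against at least 48.0 CPM in the other 8. Lyz2, a macrophage and granulocyte gene and the largest part of the sum, was at 10.0 CPM there and 17.0 to 26.2 CPM elsewhere. Ptprc, Cd68, Adgre1, Csf1r, Itgam, C1qa, C1qb, Fcgr1 and Cx3cr1 were also at their lowest in Gata4 KD b. Of the 11 markers tested, only Cd14 was not, at 3.33 CPM in Gata4 KD b and 1.92 to 3.38 CPM elsewhere. Without Gata4 KD b the log2 difference of Cxcl5 from control was 0.97, and the part of leukocyte RNA in these ligands was not tested. By likeness of log2 CPM over the 9 libraries, the genes nearest to Cxcl1 among 10457 candidates were Ier5 (r = 0.980), Mindy3 (0.977), Rbm18 (0.973) and Unc5c (0.970). Nearest to Ackr4 among 10458 were Prnp (0.991), Spon2 (0.983), Babam2 (0.971) and Igfbp3 (0.968). These r values include the differences between groups. The study names Spon2 and Ptgs2, like Ackr4, among genes of opposite response in these libraries, so the likeness of Spon2 is not independent of that contrast.

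**Figure D3:**
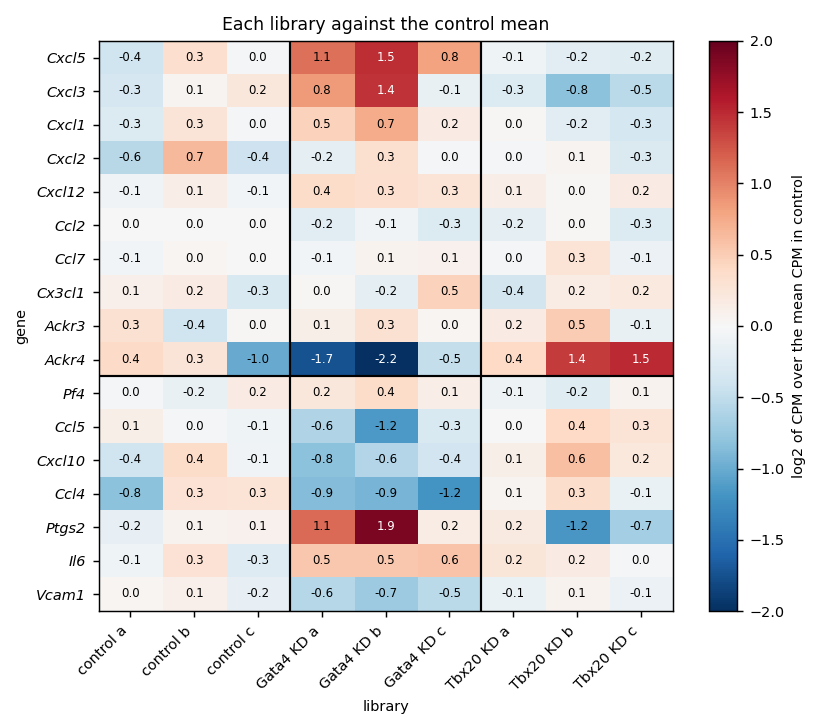
Log2 of each library's CPM over the control mean (colour and printed value) for the 10 genes, above the line, and other named genes, below it; columns are the 9 libraries (x axis) and rows the genes (y axis). Cxcl5, Cxcl3 and Ptgs2 reach their highest value in Gata4 KD b, where Ackr4 is lowest, and Cxcl5 is above the control mean in all 3 Gata4 KD libraries.

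The receptors that would read these ligands were scarce. Cxcr2, the receptor of the neutrophil-attracting ligands, was at 2.42 to 5.62 CPM in all libraries, and its log2 difference of -0.49 (SE 0.29) in Gata4 KD did not pass. Cxcr1 was at 0 counts in every library, where 0 counts allow up to 0.0715 to 0.0961 CPM (3 counts of the total, counting error only). Ccr2, the receptor of Ccl2 and Ccl7, was at 0 to 0.113 CPM, under or near that limit. Cxcr4 was at 0.278 to 1.1 CPM and Cx3cr1, also a marker of macrophages, at 0.278 to 1.2 CPM. Cx3cr1 had log2 differences of -1.06 (SE 0.37) from control and -0.68 (SE 0.36) from Tbx20 KD in Gata4 KD, neither past the threshold. Of all other receptors listed, Ccrl2, a receptor-like gene not named here as a receptor of these ligands, was the highest per kb in control. It was at 2.37 ± 0.674 CPM per kb (SD, n = 3), then Cxcr2 at 1.37 ± 0.502 and Cxcr4 at 0.490 ± 0.0606. Of the ligands of Ackr4, Ccl21a had 0 counts throughout, Ccl19 reached 0.141 CPM, and Ccl25 was at 2.76 to 3.79 CPM with no group apart. Of the 75-base windows of Ccl21a 61.3%, and of those of Ccl19 45.3%, also occur in other genes. Reads of these ligands could therefore be placed elsewhere.

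Among the other ligands, Cxcl10 and Ccl4 were lower in Gata4 KD than in Tbx20 KD. Of 57 further genes of the chemokine system 29 were tested, 7 had 0 counts in every library, and the list was drawn up with earlier results known. In Gata4 KD against control 0 passed, with 7 at an unadjusted p under 0.05, beside 8.54% of all genes, and 1 called by DESeq2. In Tbx20 KD against control 0 passed, with 0 at an unadjusted p under 0.05, beside 2.69% of all genes, and 0 by DESeq2. Between the knockdowns 2 of the 29 passed, both lower in Gata4 KD, beside 1.44% of all genes. There 5 of the 29 had an unadjusted p under 0.05, beside 16.7% of all genes. Their median log2 difference was -0.26, 0.02 and -0.27 in the 3 comparisons, beside -0.017, -0.002 and -0.006 over all genes, and 18, 14 and 21 of 29 had a negative sign.

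Cxcl10, which draws T cells, was at 130, 223 and 163 CPM in control, 97.9, 115 and 132 CPM in Gata4 KD, and 186, 262 and 200 CPM in Tbx20 KD. The knockdowns did not overlap, and the log2 difference of Gata4 KD from Tbx20 KD was -0.91 (SE 0.15, adjusted p = 0.0404, edgeR). Ccl4, a ligand that draws macrophages and T cells, was at 1.86, 4.01 and 3.97 CPM in control, 1.79, 1.72 and 1.43 CPM in Gata4 KD, and 3.42, 4.18 and 3.00 CPM in Tbx20 KD. Its difference between the knockdowns was -1.09 (log2, SE 0.18, adjusted p = 0.0367, edgeR). The Cxcl10 call was lost with all 9 libraries in one fit and without Gata4 KD a, Gata4 KD b, Tbx20 KD b or Tbx20 KD c, with adjusted p up to 0.165, and the Ccl4 call with all 9 libraries in one fit, with the replicate letter as a block and when any library other than Gata4 KD c was left out, with adjusted p up to 0.151.

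Ccl5, also known as RANTES and the highest of the other ligands per kb in control at 209 ± 14.6 CPM per kb (SD, n = 3), was at 217, 196 and 190 CPM in control, 132, 90.2 and 163 CPM in Gata4 KD, and 200, 266 and 244 CPM in Tbx20 KD. Gata4 KD lay below every other library, but the differences of -0.65 (log2, SE 0.19) from control and -0.87 (SE 0.21) from Tbx20 KD did not pass (adjusted p = 0.327 and 0.104, edgeR). Cxcl10 at 76.4 ± 21.0 and Cxcl16 at 10.8 ± 0.589 CPM per kb came next. Ccl6 had the third smallest p in Tbx20 KD, at 0.62 (SE 0.41) from control, after Ccl5 and Cxcl10. The leukocyte marker sum was 29.3 to 52.3 CPM in Gata4 KD, 52.2 to 57.8 CPM in control and 48.0 to 72.9 CPM in Tbx20 KD. In Gata4 KD 9 of its 11 tested genes were below control, with 0 past the threshold in edgeR. Of the 11, 2 had an unadjusted p under 0.05, beside 8.54% of all genes. The part of leukocyte RNA in Cxcl10, Ccl4 and Ccl5 was not tested. The 6 arrestins, sheddases and anchoring proteoglycans tested, among them Arrb2, Sdc4, Sdc1, Arrb1 and Adam17, gave 0 calls in each comparison by edgeR. At an unadjusted p under 0.05 were 1, 0 and 0 of them, beside 8.54%, 2.69% and 16.7% of all genes.

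**Figure D4:**
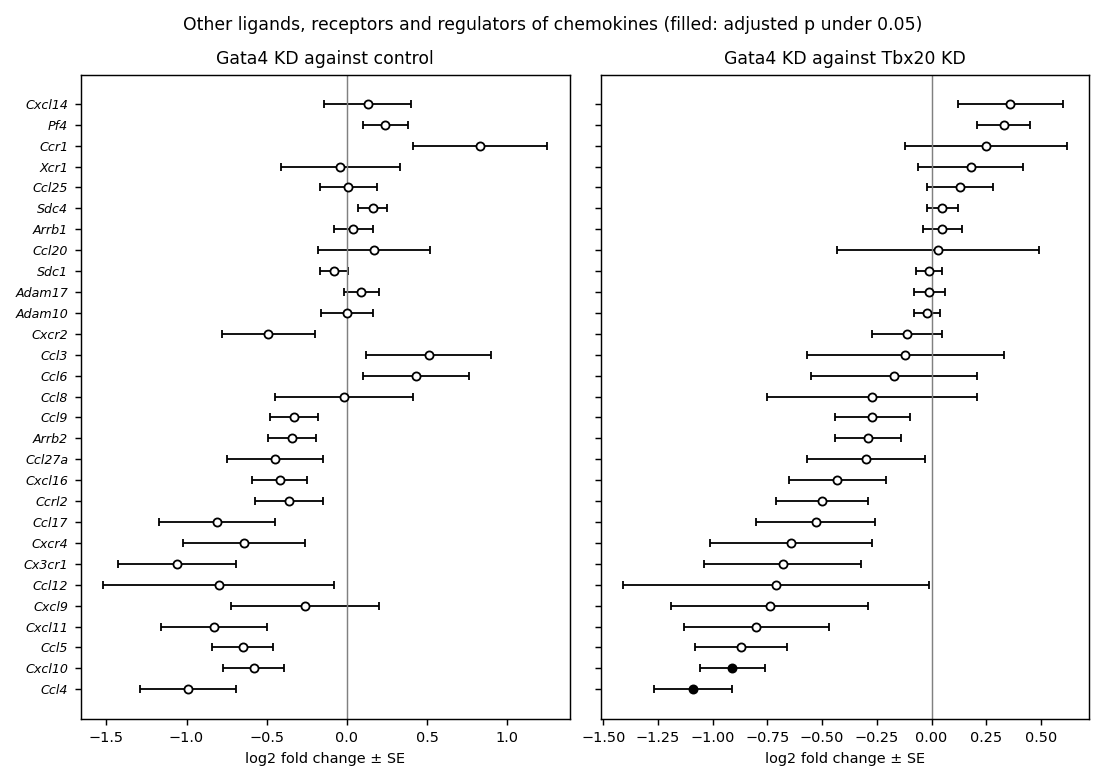
Log2 fold change with SE (x axis) of the 29 other chemokine system genes tested (y axis), in Gata4 KD against control and against Tbx20 KD; filled points passed an adjusted p of 0.05. Ccl4 and Cxcl10 are filled in the right panel, and 18 and 21 of the 29 lie below 0.

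Inflammatory genes were followed as a list of 52, of which 46 were tested, and this list was also drawn up with earlier results known. The values are mRNA levels, and the activity of signals that induce these chemokines was not measured. Against control 0 passed in Gata4 KD, with 12 at an unadjusted p under 0.05, beside 8.54% of all genes, and 2 called by DESeq2. In Tbx20 KD 0 passed, with 1 at an unadjusted p under 0.05, beside 2.69% of all genes, and 0 by DESeq2. Between the knockdowns 1 rose and 1 fell in Gata4 KD, beside 1.44% of all genes called, and the median was 0.00. There 12 of the 46 had an unadjusted p under 0.05, beside 16.7% of all genes. Il6, a cytokine of acute inflammation, was at 133, 134 and 136 CPM in Gata4 KD, 109, 103 and 90.8 CPM in Tbx20 KD and 87.0, 112 and 76.9 CPM in control, a difference of 0.42 between the knockdowns (log2, SE 0.07, adjusted p = 0.0405, edgeR). Vcam1, which lets leukocytes adhere, was at 561, 506 and 575 CPM in Gata4 KD, 761, 872 and 769 CPM in Tbx20 KD and 855, 897 and 747 CPM in control. Its difference was -0.55 between the knockdowns (log2, SE 0.08, adjusted p = 0.0258, edgeR) and -0.61 from control (SE 0.10, adjusted p = 0.0511). The Il6 call was lost with library size alone, with all 9 libraries in one fit, with the block and without Gata4 KD a, Gata4 KD b, Tbx20 KD b or Tbx20 KD c, and the Vcam1 call with the block and when any library other than Gata4 KD c was left out, with adjusted p up to 0.180 and 0.127.

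Ptgs2 was 1.22 (log2, SE 0.35) above control in Gata4 KD and did not pass (adjusted p = 0.301, edgeR). For the counts that follow, the share of all genes at an unadjusted p under 0.05 was 8.54%, 2.69% and 16.7% in the 3 comparisons. Of 12 NF-kB subunits and feedback genes 0 passed in any comparison by edgeR, with 0, 0 and 1 at an unadjusted p under 0.05; Nfkbiz was at 0.19 (log2, SE 0.10) from control and 0.34 (SE 0.13) from Tbx20 KD. Of 15 receptors and adaptors 0 passed, with 3, 1 and 5 at an unadjusted p under 0.05, and of 7 mRNA decay factors 0, with 1, 0 and 0. Il17ra was at -0.31 (log2, SE 0.08), Tlr2 at -0.45 (SE 0.14) and Il1r1, the interleukin-1 receptor, at 0.29 (SE 0.11) in Gata4 KD against control. Of 8 interferon-stimulated genes 0 passed in each comparison by edgeR, with 0, 0 and 3 at an unadjusted p under 0.05; 7 of the 8 were below control in Gata4 KD and 7 above it in Tbx20 KD, and Isg15 differed by -0.20 (log2, SE 0.05) between the knockdowns.

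Among 9 immediate early genes, Nr4a1, a nuclear receptor, rose in Gata4 KD by 0.79 from control (log2, SE 0.12, adjusted p = 0.0493) and by 1.23 from Tbx20 KD (SE 0.22, adjusted p = 0.0464, edgeR). Nr4a1 was the 1 called of the 9 in each comparison, beside 0.380% and 1.44% of all genes. It was at 35.9, 42.7 and 42.0 CPM in Gata4 KD, 19.4, 26.3 and 23.8 CPM in control, and 23.5, 11.9 and 16 CPM in Tbx20 KD. The first call was lost with the CPM filter, all 9 libraries in one fit, the block and when any library other than control b was left out, and the second with library size alone, the block and without Gata4 KD a, Gata4 KD b, Tbx20 KD b or Tbx20 KD c, with adjusted p up to 0.204 and 0.221. Among the markers of other cells, Lrrn4, a mesothelial gene, was lower in Gata4 KD by a log2 difference of -3.38 from control (SE 0.27, adjusted p = 0.00272) and -3.42 from Tbx20 KD (SE 0.20, adjusted p = 0.000961, edgeR), and kept its call without each library. Kdr, an endothelial receptor, was 0.90 higher in Gata4 KD than in Tbx20 KD (log2, SE 0.13, adjusted p = 0.0258, edgeR), at 5.04 to 6.25 against 2.68 to 3.23 CPM, a call lost with the block and when any library other than Gata4 KD c was left out. It was the 1 called of the 8 endothelial markers, beside 1.44% of all genes. Of these 8, 4 were higher and 4 lower in Gata4 KD than in Tbx20 KD, with a median log2 difference of 0. The 5 mesothelial markers summed to 8.06 to 15.9 CPM in Gata4 KD, 23.6 to 44.4 CPM in control and 25.4 to 41.3 CPM in Tbx20 KD. Of the 4 tested, 2 were above control in Gata4 KD and 2 below, and Lrrn4 was the 1 called, beside 0.380% of all genes. Lrrn4 alone was at 15.8 to 32.2 CPM in control and 2.11 to 2.73 CPM in Gata4 KD. Upk3b was also below control in every Gata4 KD library, at 0.846, 0.611 and 1.1 CPM against 3.88, 1.72 and 1.64 CPM. It did not pass in the main fit, but did with DESeq2 and with the exact test. Krt19 and Wt1, the 2 above control, overlapped it. Krt19 was at 7.18, 5.31 and 7.53 CPM in control and 9.49, 12.1 and 4.13 CPM in Gata4 KD. The part of the mesothelial markers in Cxcl5 was not tested.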

How the data were processed

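RNA was sequenced from 9 libraries of adult mouse cardiac fibroblasts as stranded 75-base single-end reads. By the methods of the study, reads were quality-trimmed by the authors, placed on GRCm38 with Bowtie2 and turned into estimated counts per gene with RSEM, while the submitters' processing notes name Bowtie and mm9. The deposited values are expected counts, held as whole numbers and not normalized. RSEM divides reads that fit several genes among them. Symbols and positions came from GENCODE M21 (GRCm38), and 37607 of 38924 gene IDs had a symbol.

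Fits took the 6 libraries of a comparison and used edgeR 4.0.16 in R 4.3.3: filterByExpr, TMM, quasi-likelihood F test, Benjamini-Hochberg over all genes tested, threshold 0.05. CPM was scaled by TMM over 9 libraries, and levels between genes were compared per kb of union exons. SE is that of the log2 fold change. Correlations used log2 CPM with a prior count of 2. With 3 libraries a group, exact permutation of a single value gives a p of 0.1 at the least. The labels number replicates but name no animal or batch, and the study calls them biological replicates; p-values measure the spread between these libraries only. Replicates differed by more than sampling noise (chi-square per degree of freedom 6.2 to 65), so no pair looked like 1 library deposited again, which does not show separate animals or dishes. The procedure was tested on simulated counts.

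The 10 genes and all lists were chosen with earlier results of these data known. Named were the 10 genes; in each list the genes past the threshold or up to 3 of smallest p, a part of which is printed; the 3 highest other ligands and receptors per kb; and the 4 genes most like Cxcl1 and Ackr4. Pf4, Ppbp, Cxcl15, the receptors of the 10 genes and the ligands of Ackr4 were named for their role or position, and Ptgs2 for its order in the libraries, after values were seen. Alternatives were DESeq2 1.42.0, library size alone, no filter, CPM above 1 in at least 2 libraries, the exact test, limma-voom (limma 3.58.1), one fit of all 9 libraries, the replicate as a block, each library left out, and the longest transcript as length. One further gene of the chemokine system is not reported here.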

Additional observations from a re-analysis of the deposited data

Results flagged for a closer look

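Differences between the responses to the knockdowns met the mark for a closer look in 9 genes. For Cxcl5 and Ackr4 every Gata4 KD library lay on one side of the control mean and every Tbx20 KD library on the other, with log2 differences between the knockdowns of 1.34 and -2.42. For Cxcl5, Tbx20 KD at 26.1 to 29.2 CPM lay inside the control range of 23.5 to 39.3 CPM. For Ackr4, Tbx20 KD a was at 1.66 CPM beside 1.65 CPM in control a, and Gata4 KD overlapped control. Both genes were chosen with this pattern known, so the difference was not tested on independent data, and their fitted values are descriptions. For 7 genes outside the 10, the difference between the knockdowns passed in edgeR, with 3 libraries a group, and the sign held under each alternative tried. It was -0.91 for Cxcl10, -1.09 for Ccl4, 0.42 for Il6, -0.55 for Vcam1, 1.23 for Nr4a1, 0.90 for Kdr and -3.42 for Lrrn4 on the log2 scale. Lrrn4 was the one of these 7 that stayed past the threshold in all 14 alternatives, and the others did in 7 to 9 of them.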

How the results depend on the processing

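Counts of genes past the threshold moved with the test and with single libraries, and the cause was not tested. Of the 10 genes, Gata4 KD against control gave 0 calls, but 2 with DESeq2, 1 each with no filter, the exact test and all 9 libraries in one fit, and 0 to 2 with 1 library left out (2 without control b). Between the knockdowns the 1 call became 5 with DESeq2, 4 with the exact test, 2 each with no filter and all 9 libraries, and 0 to 4 with 1 library left out. Of other chemokine system genes, DESeq2 called 1 in Gata4 KD against control, and the 2 calls between the knockdowns became 0 with all 9 libraries in one fit and 0 to 4 with 1 library left out. Of inflammatory genes, Gata4 KD against control gave 2 with DESeq2, 3 with the exact test, 1 each with library size alone, no filter and all 9 libraries, and 0 to 2 with 1 library left out. Their 2 calls between the knockdowns became 7 with DESeq2, 8 with the exact test, 1 with library size alone, 1 with all 9 libraries, and 0 to 8 with 1 library left out (8 without Gata4 KD c). Tbx20 KD against control gave 0 calls in these lists under each alternative.

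With the replicate letter as a block, the calls between the knockdowns were 1 of the 10, 1 other chemokine system gene and 0 inflammatory genes. Calls over all genes went from 55, 1 and 208 to 5, 2 and 101. Same-letter libraries had deviations correlated at -0.19 to 0.42, and not every library was closest to its own letter, so the letters were not taken as pairs.

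Over all genes, calls in Gata4 KD against control ranged from 6 without control a to 189 without control b, beside 279 with DESeq2 and 250 with the exact test. For the 10 genes, 412 of 418 alternative values stayed within their margin. The margin was 1 SD between replicates for a log2 difference, and unchanged ranks for the order by level. The alternatives reuse the same libraries, so small shifts were likely in advance and show little about stability. Without control b, Cxcl2 was at 0.52 and 0.40 from control. Without Tbx20 KD b, Ccl2 was at -0.23 and Ccl7 at -0.07 from control, and Ccl7 at 0.11 between the knockdowns. The longest transcript as length kept 8 of 10 ranks, with Cxcl2 and Ackr4 changing places. Depth limits Ackr4, at 10 to 143 counts a library, and Cxcl2, at 19 to 42.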
